A study of Mus musculus with 2 samples.

Results

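A group of 5 microRNA loci lies inside introns of genes that serve lipid, coenzyme A and energy metabolism: Mir33 in Srebf2, Mir107 in Pank1, Mir103-2 in Pank2, Mir103-1 in Pank3 and Mir378a in Ppargc1b. They were taken by name and genomic position, and they are 5 of the 1973 loci in the deposited count tables. Mir378a has no row of its own. It is read from the row of Gm25301, a predicted microRNA gene that covers it on the other strand, so its count is the opposite-strand count of that row. The tables come from small RNA libraries (fragments below 30 nucleotides) of mouse hindbrain, strain B6NCrl, at embryonic day 14.5, and the labels name no mutation, transgene or treatment. There is 1 group with 2 libraries, replicate 1 from tissue collected on 24 July 2014 with 5826676 gene-strand counts on loci and replicate 2 from tissue collected on 30 July 2014 with 6667238. The labels number them as biological replicates. They also call each sample both the hindbrain of a single pup and a pool of sexes, and give both the same donor label, so what the spread between the libraries covers is not settled. There is no second condition, and the results are levels and the difference between the libraries.

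An intronic microRNA can be cut out of the same primary transcript as the mRNA around it. Its mature strand, loaded into Argonaute, pairs with mRNAs mainly through its seed, bases 2 to 8. Srebf2 encodes the transcription factor that turns on cholesterol synthesis and uptake, and miR-33 is known for repressing the cholesterol exporter Abca1. Human has a further copy in SREBF1 that rodents lack. The Pank genes encode pantothenate kinases, which start the synthesis of coenzyme A, and miR-103 and miR-107 are known for lowering insulin sensitivity in liver and fat and for repressing Dicer. Ppargc1b encodes a coactivator of genes for mitochondrial respiration, and miR-378a is known for roles in fat and muscle metabolism.

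The mature sequences show which loci can be told apart by a short read, so both arms are given for 4 loci from RefSeq's microRNA table (GRCm38.p6). The chromosome of Mir378a was left out of that table here. The sequence of Mir378a is thus not given, and the sequence comparisons below do not cover that chromosome. Capitals mark the seed.
miR-33-5p: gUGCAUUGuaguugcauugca
miR-33-3p: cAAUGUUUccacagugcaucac
miR-107-3p: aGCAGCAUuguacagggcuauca
miR-103-3p: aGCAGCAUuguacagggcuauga
miR-107-5p: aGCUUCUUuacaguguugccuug
miR-103-1-5p: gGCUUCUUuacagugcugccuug
miR-103-2-5p: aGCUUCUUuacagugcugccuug

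miR-103-3p and miR-107-3p have the same seed and the same first 21 bases, and differ by G22C (the base of miR-103 first, counted from the 5′ end of the 23 bases). Among the 1679 mature sequences of the other chromosomes these 2 alone carry the seed GCAGCAU, and miR-33-5p alone carries UGCAUUG. The 5p arms differ by G1A between miR-103-1 and miR-103-2, and by C16U between miR-103-2 and miR-107. miR-103-3p stands whole in both the Mir103-1 and the Mir103-2 hairpin, so a read of it has no position of its own. Its first 20 bases also stand in the Mir107 hairpin. A read of miR-107-3p from its first base matches Mir107 alone only once it reaches 22 bases, and a read of miR-33-5p matches Mir33 alone from 10 bases on.

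The hairpins below show how far this sharing goes, with the mature arms in capitals.
Mir33: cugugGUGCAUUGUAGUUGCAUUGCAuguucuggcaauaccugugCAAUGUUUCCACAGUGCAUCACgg
Mir107: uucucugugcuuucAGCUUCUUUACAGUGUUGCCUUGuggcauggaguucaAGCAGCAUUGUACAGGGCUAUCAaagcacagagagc
Mir103-1: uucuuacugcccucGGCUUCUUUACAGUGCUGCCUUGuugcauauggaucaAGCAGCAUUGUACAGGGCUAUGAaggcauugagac
Mir103-2: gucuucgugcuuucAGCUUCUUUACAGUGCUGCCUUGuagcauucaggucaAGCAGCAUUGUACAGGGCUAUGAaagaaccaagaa

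The Mir103-1 and Mir103-2 hairpins share a run of 27 bases over the 3p arm, and each shares a run of 24 bases with Mir107. Of the 65 windows of 22 bases in Mir103-1, 57 stood in no other of the 1005 RefSeq hairpins compared. The same held for 55 of 65 windows in Mir103-2, 61 of 66 in Mir107 and 48 of 48 in Mir33. The longest run of Mir33 in common with any other of these hairpins was 11 bases (Mir148b). Whole-read alignment with mismatches was not modelled. In RNAfold the minimum free energy was -41.2 kcal/mol for Mir107, -35.8 for Mir103-1, -32.2 for Mir33 and -31.8 for Mir103-2. GC content ran from 45.3% (Mir103-2) to 47.8% (Mir33), below the median of 51.7% over the 1005 hairpins compared.

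By GENCODE M21 on GRCm38, the build of the deposited tables (mm10), each hairpin lies wholly within an intron, on the strand of its host, and overlaps 0 exons of any transcript of that host. Mir33 (ENSMUSG00000065465.1) lies at chr15:82198122-82198190 in intron 17 of 20 of Srebf2. Mir107 (ENSMUSG00000065594.1) lies at chr19:34820687-34820773 on the minus strand in intron 5 of 6 of Pank1. Mir103-1 (ENSMUSG00000065553.1), at chr11:35782396-35782481, is also in intron 5 of 6, of Pank3, and Mir103-2 (ENSMUSG00000065563.1), at chr2:131288052-131288137, is in intron 7 of 8 of Pank2. These 4 hairpins start 326 to 688 bases after the exon before them.

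Mir378a differs in place. It lies at chr18:61397835-61397900 on the minus strand in intron 1 of 12 of Ppargc1b, 2531 bases from the start of the gene, whereas the other 4 lie 12912 to 58682 bases from theirs. The Gm25301 row (ENSMUSG00000093026.1) runs from 61397813 to 61397925 on the plus strand. Each of the 5 hosts holds 1 locus of the tables. Among their paralogs, Pank4 and Ppargc1a hold 0 and Srebf1 holds 2, Mir6921 with 5 and 1 counts in replicates 1 and 2 and Mir6922 with 0 and 1.

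**Figure D1:**
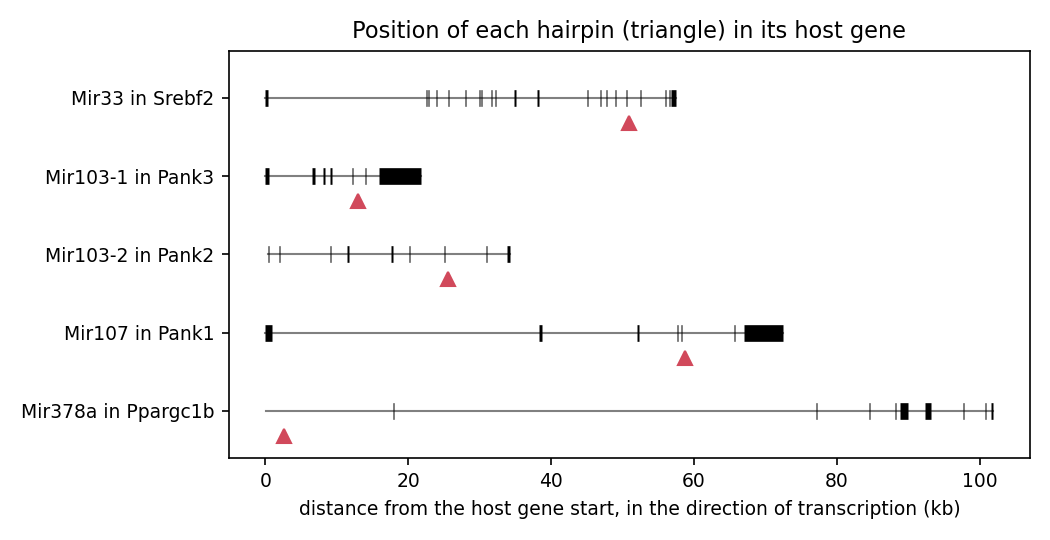
Position of the 5 hairpins in their host genes, in kb from the start of each host in the direction of transcription. Grey lines are the spanning transcript with the most exons, black bars its exons and triangles the hairpins. Mir378a sits in the first intron of Ppargc1b, and the other 4 sit in later introns.

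Levels are given in CPM, the count of a locus per 1000000 gene-strand counts on loci, with exact 95% Clopper-Pearson intervals that cover counting error only, since the tables count reads and not molecular identifiers. Each of the 5 reached 10 counts in both libraries, as did 402 of the 1973 loci (20.4%). The 5 together held 0.417% ± 0.0100 of the counts (SD, n = 2), and Mir107 alone made up 56.6% of that sum in replicate 1 and 57.1% in replicate 2. The expression of the host mRNAs was not measured in these libraries.

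Mir107, in the pantothenate kinase gene Pank1, was the highest. It had 13504 counts in replicate 1, or 2318 CPM (interval 2279 to 2357), and 16129 in replicate 2, or 2419 CPM (2382 to 2457). Its mean of 2368 ± 71.8 CPM (SD, n = 2) ranked 69th among all loci and above 82.8% of the detected ones. The libraries lay close together here, with a coefficient of variation of 3.03%, though on this scale their intervals did not overlap.

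Mir378a, counted on the opposite strand of Gm25301, came next. It had 9534 counts in replicate 1 (1636 CPM, interval 1604 to 1669) and 10922 in replicate 2 (1638 CPM, 1608 to 1669), with a mean of 1637 ± 1.34 CPM (SD, n = 2) and rank 85. The gene strand of Gm25301 had 0 counts in both libraries, where a count of 0 leaves room for levels below 0.515 CPM (replicate 1) and 0.450 CPM (replicate 2). All reads assigned to this row were thus on the strand of Mir378a and Ppargc1b. At the other 4 loci the opposite strand likewise had 0 counts in both libraries, so every read counted there had the direction of the host gene.

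Mir33 stood far below these. It had 467 counts in replicate 1 (80.1 CPM, interval 73.0 to 87.8) and 792 in replicate 2 (119 CPM, 111 to 127), a mean of 99.5 ± 27.3 CPM (SD, n = 2) and rank 214. Replicate 2 was the higher library, and the intervals did not overlap.

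Mir103-2 and Mir103-1, whose 3p arm is one and the same sequence, were the lowest. Mir103-2 had 316 and 370 counts in replicates 1 and 2, that is 54.2 CPM (48.4 to 60.6) and 55.5 CPM (49.98 to 61.4), with a mean of 54.9 ± 0.892 CPM (SD, n = 2) and rank 241. Mir103-1 had 41 and 36 counts, that is 7.04 CPM (5.05 to 9.55) and 5.40 CPM (3.78 to 7.48), with a mean of 6.22 ± 1.16 CPM (SD, n = 2) and rank 322. At both loci the intervals of the libraries overlapped. Reads that aligned to several positions were not assigned to loci, and they numbered 0.687 per assigned gene-strand count in replicate 1 and 0.738 in replicate 2. How many of them were miR-103-3p is not recorded in the tables, so the levels of Mir103-1 and Mir103-2 are uncertain and leave out any such reads, as does that of Mir107 for reads that end before base 22.

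**Figure D2:**
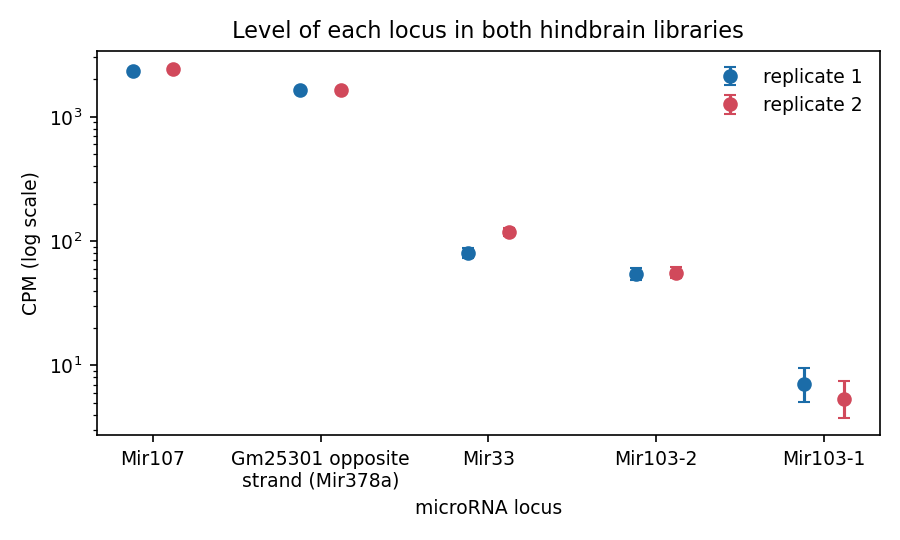
Level of each locus in CPM (log axis) in replicate 1 (blue) and replicate 2 (red), with 95% Clopper-Pearson intervals as bars, which are smaller than the points for Mir107 and Gm25301. The order of the loci is the same in both libraries, from Mir107 at 2318 and 2419 CPM to Mir103-1 at 7.04 and 5.40 CPM.

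The order Mir107, Mir378a, Mir33, Mir103-2, Mir103-1 was the same in both libraries. It was also the same for levels divided by hairpin length: per 100 hairpin bases, Mir107 had 2664 and 2781 CPM in replicates 1 and 2, Mir378a 2479 and 2482, Mir33 116 and 172, Mir103-2 63.1 and 64.5 and Mir103-1 8.18 and 6.28. No neighbours in this order overlapped between libraries on that scale. The hairpins are 66 to 87 bases long, a range too narrow to change this order, so the division is no check on it. Small RNA library preparation captures different sequences unequally, and this was not measured here.

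Within a library, counts of Mir107 were 42.7 times those of Mir103-2 in replicate 1 and 43.6 times in replicate 2, a nearly fixed proportion. Mir103-2 exceeded Mir103-1 by 7.71-fold in replicate 1 and 10.3-fold in replicate 2, where the small counts of Mir103-1 limit the precision. Mir107 thus supplied 97.4% and 97.5% of the counts of the 3 Pank loci, a share that concerns reads assigned to a single locus and not the molecules of miR-103 and miR-107.

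Among loci in an intron of a protein-coding gene on the same strand, with the 5 left out, 160 of 650 (24.6%) had at least 10 counts in each library. Their median was 57.7 CPM and their quartiles 4.93 and 757 CPM. Mir107 and Mir378a lay above the upper quartile, Mir33 above the median, Mir103-2 close to it and Mir103-1 near the lower quartile. By distance in log2(CPM + 1) over the 2 libraries, the loci nearest in level to Mir107 were Mir301 (2401 ± 21.9 CPM) in Ska2 and Mir92b (2400 ± 117 CPM). Nearest to Mir378a were Mir423 (1668 ± 16.7 CPM) and Mir154 (1717 ± 71.6 CPM). Mir33 had as its nearest loci Mir873a (91.3 ± 23.1 CPM) and Mir190a (92.7 ± 5.56 CPM). Those of Mir103-2 were Mir1981 and Mir146, and those of Mir103-1 were Mir344b and Mir6897. Each of these means has SD over n = 2.

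**Figure D3:**
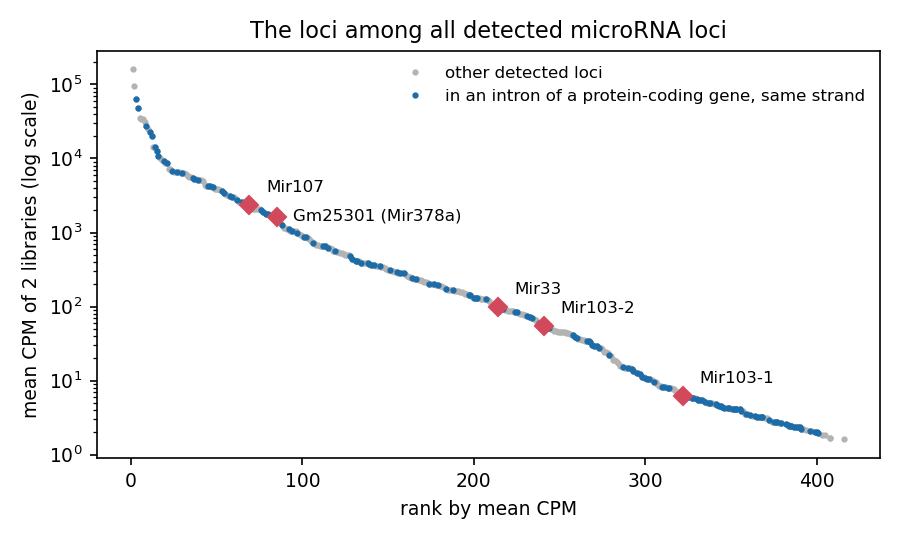
Mean CPM of the 402 detected loci (log axis) against their rank among all loci. Diamonds mark the 5 loci, blue points other loci in an intron of a protein-coding gene on the same strand. Mir107 and Mir378a rank 69 and 85, and Mir33, Mir103-2 and Mir103-1 rank 214, 241 and 322.

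The libraries were compared locus by locus, with TMM scaling and an exact two-sided binomial test adjusted by Benjamini-Hochberg over the 499 loci whose counts in both libraries add up to 10 or more. The test sets these 2 libraries against counting error and says nothing of conditions, and collection day coincides with replicate. Across all tested loci 32.5% passed in either direction and 17.4% passed as higher in replicate 2. Of the 5 loci 1 passed, Mir33, as higher in replicate 2. For so few loci that is near the background.

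Mir33, at 80.1 and 119 CPM, was 1.44-fold higher in replicate 2 (log2 ratio 0.52, 95% interval 0.36 to 0.69, adjusted p = 1.8e-09 in the exact binomial test). Its log2 ratio was the 32nd highest of the 499, and 93.6% of the tested loci lay below it. The counts of Mir33 were 0.0346 of those of Mir107 in replicate 1 and 0.0491 in replicate 2, a comparison within each library that needs no scaling. When edgeR's common dispersion, equal to a coefficient of variation of 10.8% between the libraries, was allowed for, 1.4% of the loci passed and Mir33 did not (exact test, adjusted p = 0.60, unadjusted p = 0.027). Its estimate treats the pair of libraries as 1 group, so it contains the differences it is set against. By that test 0 of the 5 loci passed, with 1 (Mir33) at an unadjusted p under 0.05, beside 27 of all 499. In whole tissue, fewer cells of a type and less RNA per cell cannot be told apart.

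The other 4 loci did not pass. Mir107, at 2318 and 2419 CPM, had a log2 ratio of 0.020 (-0.013 to 0.053, adjusted p = 0.44 in the exact binomial test), an interval that holds for TMM scaling. Scaled by library totals it was 0.062 and passed (adjusted p = 0.00089). Mir378a, at 1636 and 1638 CPM, had -0.041 (-0.080 to -0.00073, exact binomial adjusted p = 0.12). It passed with DESeq2 size factors, with upper-quartile scaling and with loci limited to 100 counts or more, and turned to 0.0017 with library totals, so no direction can be given for either locus. Mir103-2 had -0.0093 (-0.23 to 0.21) and Mir103-1 -0.42 (-1.11 to 0.26), and the wide interval of Mir103-1 rests on 41 and 36 counts. The sum of the 3 Pank loci had 0.018 (-0.015 to 0.051).

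**Figure D4:**
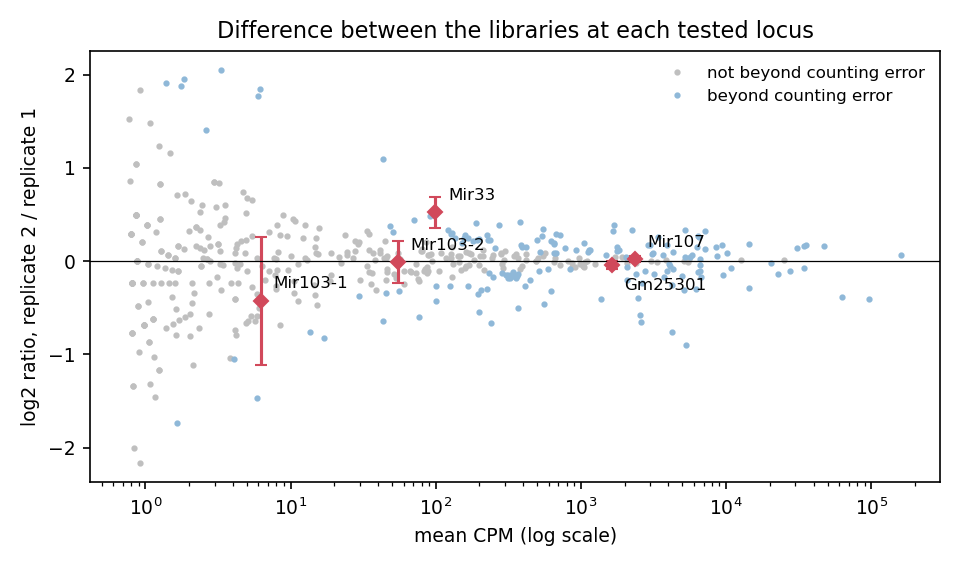
Log2 ratio of replicate 2 over replicate 1 against mean CPM (log axis) for the 499 tested loci. Pale blue points passed the exact binomial test, grey points did not, and diamonds are the 5 loci with 95% intervals of counting error. Mir33 lies at 0.52 with an interval above 0, and the others lie near 0 or, for Mir103-1, have an interval that spans it.

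The tissue markers bear on what else was in the libraries. Hindbrain and axial markers of the Hox clusters held 17.9% of the counts in replicate 1 and 14.0% in replicate 2. Of these, 2 of 4 tested loci (Mir10a and Mir10b) were lower in replicate 2, beside 75 of all 499 tested loci. A further listed marker, Mir196a-1, had 1 and 0 counts. Of 9 neural markers, 4 were higher (17.4% over all tested loci) and 1, Mir9-3, was lower in replicate 2 (75 of 499 over all tested loci). The neural list held 1.48% and 1.68%, led by Mir137 at 9697 and 10645 CPM. Muscle and liver are where miR-378a and miR-33 are well studied. The 8 striated muscle markers with a row summed to 0.00227% and 0.00249%, most of it Mir206 at 14.9 and 16.2 CPM, followed by Mir208b of the Myh7 gene at 3.95 and 4.35 CPM. Mir1a-1 and Mir133a-1 had 0 counts, but both have further copies, and reads that align to several copies are not assigned. In this hindbrain the neural multi-copy loci Mir124a-1, Mir124a-2, Mir124a-3 and Mir9-2 had means of only 7.75, 3.13, 1.03 and 1.52 CPM. Mir9-3, Mir128-1 and Mir128-2, also numbered copies on the neural list, had means of 516, 1781 and 1058 CPM. A low row of a multi-copy locus thus does not by itself show how much of a tissue is present. The liver marker Mir122 had 13.7 and 15.7 CPM. Brown fat markers summed to 0.0303% in each library, nearly all of it Mir455 of Col27a1 at 283 and 285 CPM. Mir193b had 19.7 and 17.5 CPM and Mir365-1 had 1 and 1 counts, so this sum rests on 1 of the 3 listed loci. Of the muscle, liver and brown fat markers 0 of 6 tested passed, beside 32.5% over all tested loci.

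Loci known from other cell types also differed between the libraries, and the following were singled out after their values were seen. Mir449a, known from multiciliated cells, had 6775 and 3729 CPM in replicates 1 and 2. Mir449a, Mir449b and Mir34c, all of that kind, had log2 ratios of -0.90, -1.47 and -0.65 and passed the exact binomial test as lower in replicate 2. Mir34b (-0.59) passed too, and Mir449c (-0.65) did not. Mir1298 (-0.76) and Mir204 (-0.40), the latter known from choroid plexus and pigment epithelium, were also lower in replicate 2. Among microRNAs of red blood cells, Mir144 (26.9 and 59.4 CPM, log2 ratio 1.10) and Mir451a (0.38) were higher in replicate 2, and Mir486 (-0.47) did not pass. Mir449a, Mir449b, Mir1298 and Mir144 were among the 7 loci that passed edgeR's exact test, beside Mir184, Mir5126 and Gm23134. Mir33 was thus higher in the library in which these ciliated-cell loci, Mir10a, Mir10b and Mir9-3 were lower and Mir144, Mir451a and 4 neural markers were higher. The part of tissue makeup in the difference at Mir33 was not tested.

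miR-103 and miR-107 belong with miR-15, miR-16, miR-195, miR-322, miR-497 and miR-503 to a group that shares the bases AGCAGC at the 5′ end and is known for targets in the cell cycle and metabolism. The sequences below show the shift within the group, with the shared bases in capitals.
miR-15a-5p: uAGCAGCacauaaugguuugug
miR-16-5p: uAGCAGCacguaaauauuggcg
miR-322-5p: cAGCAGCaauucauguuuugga

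The shared bases start at position 2 in these and at position 1 in miR-103-3p and miR-107-3p, so the seed is AGCAGCA in miR-15a, miR-16 and miR-322 and GCAGCAU in miR-103 and miR-107. Mir322 had 5620 and 6073 CPM in replicates 1 and 2, Mir15a 3618 and 4209, Mir16-1 2028 and 2125 and Mir15b 985 and 993. Mir107, at 2318 and 2419 CPM, lay between Mir15a and Mir16-1 in both libraries, by assigned reads and not divided by length. miR-16-5p stands whole in the hairpins of both Mir16-1 and Mir16-2, so those rows leave out any reads that align to both, and this order concerns assigned reads alone. Of 7 tested loci of the list 3 were higher in replicate 2 (Mir322, Mir15a and Mir195a), 0 were lower and 4 did not pass, beside 17.4% higher over all tested loci, and the median log2 ratio was 0.030 beside 0.012 over all tested loci. Mir195b had 0 counts in both libraries. Mir497, like Mir378a, has no row and was read on the opposite strand of Mir497b, with 2053 and 2681 counts, and was not tested.

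**Figure D5:**
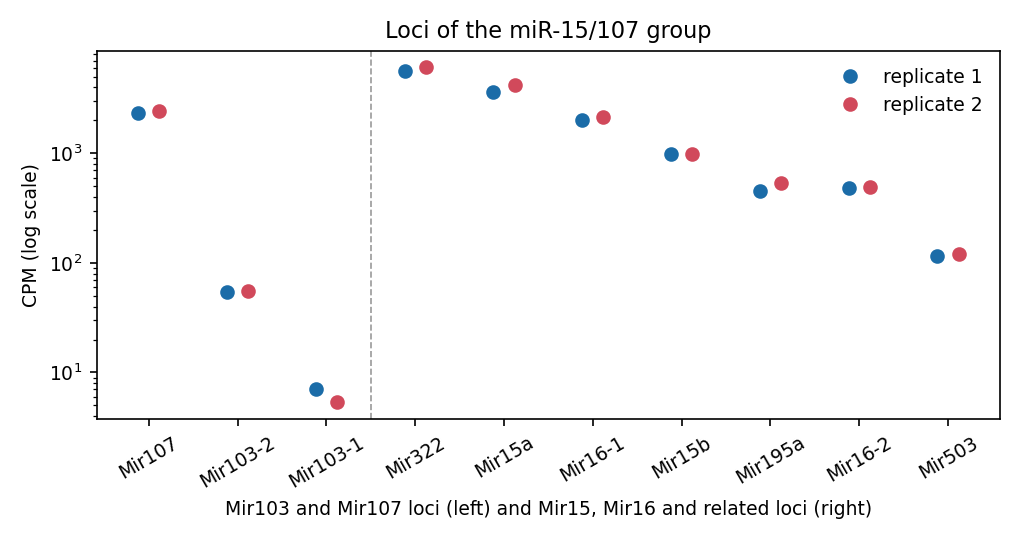
CPM (log axis) of the Mir107 and Mir103 loci, left of the dashed line, and of the related Mir15, Mir16, Mir195, Mir322 and Mir503 loci, right of it, in replicate 1 (blue) and replicate 2 (red). By assigned reads Mir107 sits between Mir15a and Mir16-1, and Mir103-2 and Mir103-1 sit below all others shown.

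The rows of the Mir378 family outside Ppargc1b were low. Mir378d had 37 and 29 counts in replicates 1 and 2 (6.35 and 4.35 CPM), Mir378c 3 and 11 (0.515 and 1.65 CPM) and Mir378b 4 and 4. Neither of the 2 with enough counts passed the exact binomial test. Within each library Mir378a thus had more assigned reads than these 3 rows together. The hairpins of Mir378b and Mir378c share a run of 19 bases, though none of their windows of 22 bases stood in another hairpin compared. Mir378a was not in that comparison, so whether it shares reads with these rows is not known. Any reads that align to several of them are left out.

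Other microRNAs known for roles in cholesterol and lipid metabolism reached 10 counts in both libraries at all 24 listed loci. They held 10.3% and 8.77% of the counts in replicates 1 and 2, led by Mir10b of the Hox clusters, Mir26b of Ctdsp1, Mir106b of Mcm7 and Mir130b, which had 70563 and 55822, 10983 and 10749, 6754 and 6465, and 4583 and 3955 CPM. Replicate 2 was the higher library at 8 of the 24 and the lower at 6, and 10 did not pass, with a median log2 ratio of 0.049. Mir33, at a mean of 99.5 CPM, was far less abundant by assigned reads than these leading loci, which were picked as the highest of the list. It lay within the range of the list, below Mir34a (mean 106 CPM) and above Mir27a (mean 85.8 CPM). Of 12 listed microRNAs of insulin and glucose metabolism replicate 2 was higher at 5 and lower at 1, and 6 did not pass, with a median of 0.074. Mir126a of Egfl7 (31783 and 36687 CPM), Mir143 (6473 and 6797 CPM), Mir7b (941 and 995 CPM) and the islet microRNA Mir375 (682 and 564 CPM) led that list. Over all 499 tested loci replicate 2 was higher at 87 and lower at 75 (114 and 59 when scaled by library totals), and 337 did not pass, so 32.5% passed either way.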

How the data were processed

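The authors deposited whole-number read counts for each microRNA locus, over both strands and for each strand, on mm10 with annotation M4, per the file lists deposited beside them. The counter and aligner were not given in the sources used here. In all 1973 loci the both-strand count equalled the sum of the strands. Multimapping reads, 33.9% and 34.3% of all reads in replicates 1 and 2, and the other 3 rows of unassigned reads stayed out of library sizes. Symbols and introns came from GENCODE M21 (1894 loci matched), sequences from RefSeq (GRCm38.p6) without the chromosome of Mir378a.

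CPM divides by gene-strand totals. TMM factors (0.985 and 1.01) came from edgeR 4.0.16, and log2 ratios add 0.5 to each count. With 1 library on each side no spread is left for edgeR's quasi-likelihood test, so an exact binomial test at an adjusted p of 0.05 was used. It was tried on simulated counts that held counting error only. That trial cannot show how the test does with the wider spread between these libraries. The chi-square statistic over the tested loci was 145.8 per degree of freedom, so the libraries differ by more than counting error. Its expected shares came from the summed counts of these loci and not from TMM. No paired analysis was possible because there is 1 group. The named genes were the 5 loci, up to 4 leading loci of each list, the 2 loci nearest in level, and partners on the other strand or with shared hairpin sequence. Mir195a, Mir195b, Mir196a-1, Mir9-3 and other marker loci beyond the leading 4, and loci of other cell types, were named after their values were seen. Members and lists were chosen with earlier results of these data known. Software was Python 3.11.15, scipy 1.17.1, R 4.3.3, DESeq2 1.42.0 and RNAfold 2.7.2.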

Additional observations from a re-analysis of the deposited data

How the results depend on the processing

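With multimapping reads in the denominator, mean levels were 1383 CPM for Mir107, 956 for Gm25301, 57.9 for Mir33, 32.05 for Mir103-2 and 3.64 for Mir103-1. With counts of both strands as the denominator, or with the partner locus credited with opposite-strand counts, Gm25301 had 1603 CPM and Mir103-2 53.7 CPM, further from the main value than the SD. The other alternatives moved levels by less than 1 SD. Leaving out replicate 1 or 2 gave the level of the other library, and leaves no difference to test.

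Mir33 was higher in replicate 2 in all 9 alternatives run (log2 ratio 0.50 to 0.57). It passed in 7, did not pass in edgeR's exact test with common dispersion (0.53, adjusted p = 0.60), and was not tested in 1, its ratio to Mir107 (0.51). Mir107 had 0.062 with library totals, where it passed, and -0.0050 with upper-quartile scaling. Gm25301 had 0.0017 with library totals, and passed at -0.057 with DESeq2 size factors, -0.065 with upper quartile and -0.053 with loci limited to 100 summed counts. Mir103-2 had 0.033 with library totals, and the sum of the Pank loci, in place of Mir103-1 or Mir103-2, 0.018. Of the 5 loci 2 passed under library totals, DESeq2 size factors and upper quartile, beside 173, 169 and 170 of all 499 tested loci. With the limit of 100 counts 2 also passed, beside 163 of 312 loci, and Mir103-1 fell below that limit. Under edgeR's exact test 0 of the 5 passed, beside 7 of the 499 (27 at an unadjusted p under 0.05). The split over all loci was 87 higher and 75 lower, against 114 and 59 with library totals and 78 and 92 with upper quartile. The ratio of Mir33 to Mir107 within each library was chosen after seeing the data. Mir103-1 is limited by depth, with 41 and 36 counts.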
